A study of Mus musculus with 10 samples.

Results

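The collagen chain genes are the rows of the counts table whose symbol has the form of a collagen alpha chain, Col followed by a type number, the letter a and a chain number, and 44 of 56748 genes had such a symbol. They were split into 11 genes of fibrillar chains, 6 genes of the type IV chains of basement membranes and 27 genes of all other chains. RNA-seq had been run on primary adipocytes, made in culture from the stromal vascular fraction of inguinal fat of male mice 6 to 8 weeks old, with 5 control and 5 Ad-Fam20c–KO libraries. Control cells had the genotype Fam20c-flox, and KO cells were Fam20c-flox/Adipoq-Cre, so both groups carried the floxed gene and the KO cells alone carried the recombinase, which the adiponectin promoter drives in adipocytes. Cells of both groups had been differentiated for 6 to 8 days with insulin, dexamethasone, rosiglitazone and 3-isobutyl-1-methylxanthine. Adipoq-Cre is constitutive, and no group carried Cre without the floxed gene. The effects of the Cre transgene and of the deletion therefore cannot be told apart. The stromal vascular fraction also holds cells that do not become adipocytes. No source used here says how many animals gave the 10 cultures, so the p-values measure the spread between these libraries, which may be technical. The paper's legend for its heatmap of both groups gives an n per group below the 5 libraries used here, without naming the unit.

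Collagens are extracellular proteins in which 3 chains wind into a triple helix, and each chain carries a repeat of glycine followed by a pair of other residues. Fibrillar chains form the cross-striated fibers of connective tissue, type IV chains form the sheet-like network of basement membranes, and the remaining types link fibers, decorate their surface, form beaded filaments or sit in the plasma membrane. Every fat cell is wrapped in a basement membrane, and adipose tissue is rich in type I, III, IV, V and VI collagen. FAM20C is a kinase of the secretory pathway, through which collagen chains also pass.

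The repeat is visible in the genes themselves. The stretches below were chosen to show the difference between a fibrillar chain and 2 chains of basement membranes. For Col1a1 the first 54 bp coding exon made only of unbroken repeats was taken. For Col4a1 and Col18a1 the first 54 bp stretch of a coding exon with repeats on both sides of 1 break was taken. All are coding sequence of GENCODE M21 on GRCm38, with the glycine codons in capitals. The Col1a1 stretch is a whole exon, coding exon 9, at chr11:94940118-94940171 on the plus strand. The Col4a1 stretch lies within coding exon 21 at chr8:11235156-11235209 on the minus strand, and the Col18a1 stretch within coding exon 12 at chr10:77077735-77077788 on the minus strand.
Col1a1: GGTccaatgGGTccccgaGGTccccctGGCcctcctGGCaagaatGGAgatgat
Col4a1: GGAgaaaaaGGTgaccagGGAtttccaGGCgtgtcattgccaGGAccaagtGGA
Col18a1: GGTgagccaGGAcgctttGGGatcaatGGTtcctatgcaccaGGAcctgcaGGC
All 3 stretches hold 18 codons, of which 6 encode glycine. In Col1a1 glycine stood at codons 1, 4, 7, 10, 13 and 16 without a break. In Col4a1 and in Col18a1 it stood at codons 1, 4, 7, 10, 15 and 18, so the spacing was broken once. Exons of 54 bp numbered 21 to 33 in the 11 fibrillar genes, 1 to 3 in the type IV genes and 0 to 28 in the other genes, counted in the transcript with the longest coding sequence. The longest unbroken glycine repeat covered 216 to 344 triplets in fibrillar genes, with a median of 338, against 39 to 66 triplets in type IV genes and 23 to 113 in the others.

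Fam20c itself was lower in each KO library than in every control library, with 10.2 ± 1.29 CPM in controls and 7.30 ± 0.449 CPM in KO cultures (mean ± SD, n = 5 each, edgeR adjusted p = 0.0137). CPM are counts scaled to a common library size. Total counts ranged from 18949106 to 26237825 per library. Libraries control 4 and KO 1 stood apart from the other 8 on the first principal component, which held 23.5% of the variance, and counts of called genes are given below with and without them. Adipocyte markers were abundant in both groups, as shown by Adipoq with 1759 ± 81.2 CPM in controls and 1820 ± 41.5 CPM in KO cultures (mean ± SD, n = 5 each).

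Collagen genes were on the whole lower in KO cultures, and the genes of the type I and type III fibers were among them. Of the genes that passed the test below, only Col5a1 and Col18a1 also passed in every alternative fit. Of the 44 collagen genes, 27 had enough counts to be tested. For these 27, the quasi-likelihood test of edgeR, with p adjusted by Benjamini and Hochberg's method over all 14270 genes tested, called 7 lower and 0 higher in KO at an adjusted p under 0.05. The same test called 1.86% of all genes lower and 0.308% higher, against 25.9% of the tested collagen genes lower. At an unadjusted p under 0.05 the collagen counts were 13 lower and 0 higher, where 7.46% of all genes were lower and 4.43% higher. DESeq2 and limma voom each called 8 collagen genes lower and 0 higher, where DESeq2 called 2.52% of all genes lower and 0.876% higher, and limma voom 2.43% lower and 0.778% higher. The fitted log2 fold change was below 0 for 26 of the 27 genes (25 with limma voom), against 50.3% of all genes, and its median was -0.22, against -0.00085 over all genes tested. Of the 10 fibrillar genes tested, 4 fell (median -0.35), of 3 type IV genes 0 passed (median -0.17), and of 14 other genes 3 fell (median -0.22). Genes that passed the filter on low counts can differ in other ways from the 17 that did not, so these counts describe the 27 and not all members.

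**Figure D1:**
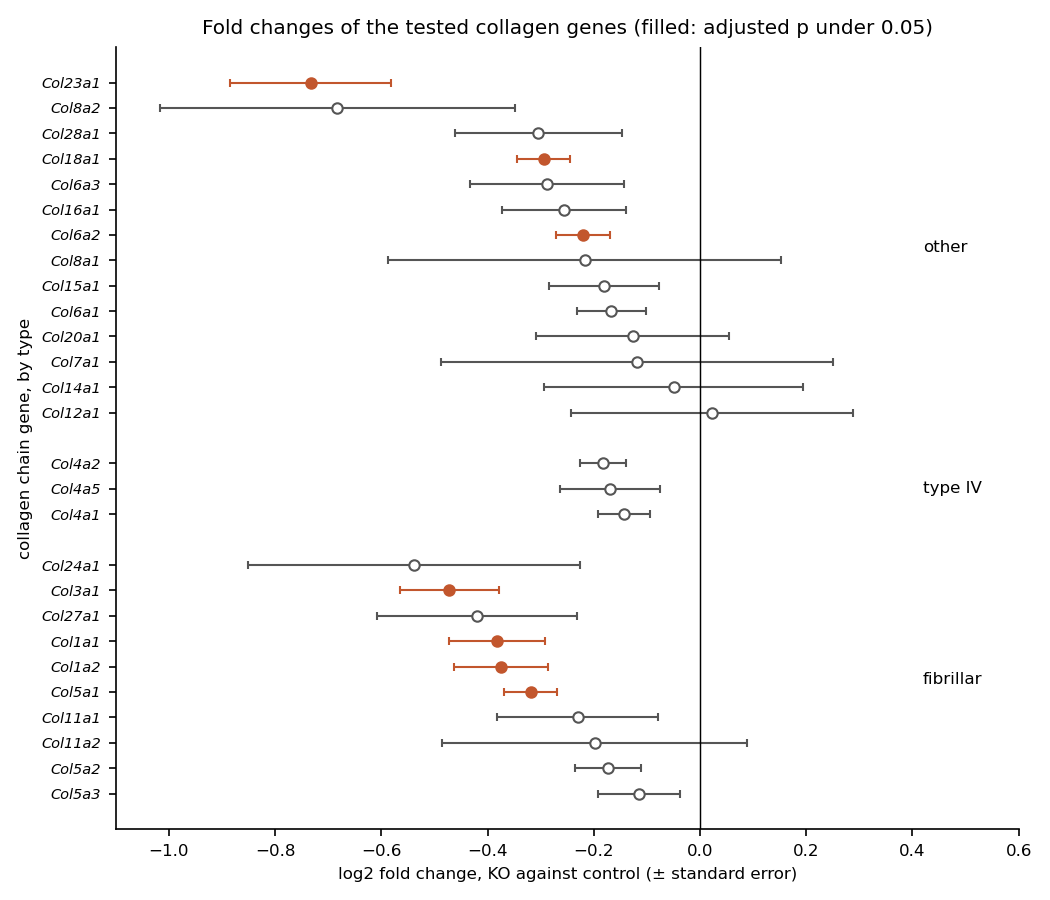
Log2 fold change of KO against control (x axis) with its standard error for the 27 collagen genes tested (y axis), grouped as fibrillar, type IV and other, with filled points for an adjusted p under 0.05 in the quasi-likelihood test of edgeR. All points except Col12a1 lie left of 0, and the 7 filled points lie between -0.73 and -0.22.

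The share of all counted fragments that fell on collagen genes shows the size of the difference without a test of single genes. Collagen genes took 1.69%, 1.601%, 1.87%, 1.75% and 1.79% of the fragments of control libraries 1 to 5 and 1.49%, 1.41%, 1.35%, 1.46% and 1.45% of KO libraries 1 to 5. The highest KO value was below the lowest control value. The fibrillar share was 0.748% to 0.970% in control and 0.610% to 0.691% in KO libraries, and the type IV share was 0.442% to 0.476% in control and 0.387% to 0.425% in KO libraries, again with no overlap. For the other types the shares overlapped, at 0.408% to 0.511% in control and 0.342% to 0.419% in KO libraries. In bulk RNA, fewer cells that make collagen and less collagen RNA per cell cannot be told apart.

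**Figure D2:**
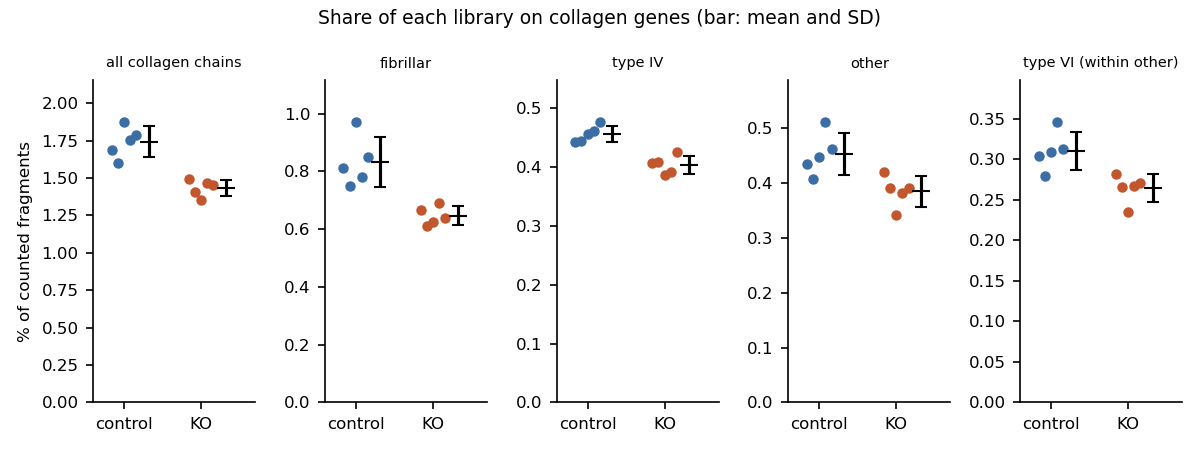
Percent of the counted fragments of each library on all collagen genes, on fibrillar, type IV and other collagen genes, and on the type VI genes within the other group (y axis, starting at 0), for control and KO libraries, with the mean and SD (n = 5) beside the points. KO points lie below all control points for all collagen genes, fibrillar genes and type IV genes, and overlap the control points for the other types.

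Type I collagen is the main fiber of most connective tissues and is built from the chains of Col1a1 and Col1a2. Col1a1 (ENSMUSG00000001506.11, chr11:94936224-94953042, plus strand) had CPM of 1332, 1205, 1604, 1456 and 1431 in controls 1 to 5, and of 1213, 999.5, 898, 1187 and 1094 in KO 1 to 5. Its mean was 1406 ± 148 CPM in controls and 1078 ± 131 CPM in KO cultures (mean ± SD, n = 5 each). KO library 1 lay above control library 2, and the other KO libraries lay below every control library. Col1a1 had a log2 fold change of -0.38 (standard error 0.0900, edgeR adjusted p = 0.0473), a decrease of 23.3%. Col1a2 (ENSMUSG00000029661.17, chr6:4504814-4541544, plus strand) had CPM of 1735, 1579.7, 2186, 1796 and 1934 in controls 1 to 5, and of 1545, 1298, 1285, 1602 and 1387 in KO 1 to 5. The groups overlapped in that KO library 4 lay above control library 2. On the log2 scale KO and control differed in Col1a2 by -0.38 (standard error 0.0882, edgeR adjusted p = 0.0473), with means of 1846 ± 229 CPM in controls and 1424 ± 144 CPM in KO cultures (mean ± SD, n = 5 each).

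Type III collagen forms fibers together with type I and is made of 1 kind of chain. Col3a1 (ENSMUSG00000026043.19, chr1:45311538-45349706, plus strand) had CPM of 2558, 2226, 3219, 2374 and 2773 in controls 1 to 5, and of 1960.0, 1718, 1879.9, 2144 and 1778 in KO 1 to 5. Every KO library lay below every control library, and control library 3 was the highest. The mean was 2629.9 ± 388 CPM in controls and 1896 ± 167 CPM in KO cultures (mean ± SD, n = 5 each). For Col3a1 the log2 fold change was -0.47 (standard error 0.0936, edgeR adjusted p = 0.0182), a decrease of 27.9%.

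Type V chains sit inside type I fibers and are needed to start them. Col5a1 (ENSMUSG00000026837.17, chr2:27886425-28039514, plus strand) had CPM of 561, 542, 582, 501 and 533 in controls 1 to 5, and of 399, 448, 426, 453 and 454 in KO 1 to 5. No KO library reached a control library. The log2 fold change of Col5a1 was -0.32 (standard error 0.0502, edgeR adjusted p = 0.00402), with 544 ± 30.4 CPM in controls and 436 ± 23.4 CPM in KO cultures (mean ± SD, n = 5 each), and this was the smallest adjusted p of the collagen genes. Col5a2, whose chain pairs with that of Col5a1, had CPM of 466, 431, 547, 503 and 507 in controls 1 to 5, and of 467, 422, 406, 453 and 430.0 in KO 1 to 5. The groups overlapped. Col5a2 had a log2 fold change of -0.17 (standard error 0.0624, edgeR adjusted p = 0.254). Col5a3, the third type V chain and one that is found in fat, had CPM of 1388, 1355, 1381, 1376 and 1129 in controls 1 to 5, and of 1212, 1329.7, 1282, 1011 and 1286 in KO 1 to 5. Control library 5 and KO library 4 were low in their groups, and the groups overlapped. On the log2 scale KO and control differed in Col5a3 by -0.11 (standard error 0.0781, edgeR adjusted p = 0.646). Of the minor fibrillar chains, Col27a1 had CPM of 10.8, 8.44, 9.97, 11.3 and 6.85 in controls 1 to 5, and of 9.23, 7.29, 7.33, 4.03 and 7.43 in KO 1 to 5. For Col27a1 the log2 fold change was -0.42 (standard error 0.188, edgeR adjusted p = 0.404), and the groups overlapped. Col11a1, Col11a2 and Col24a1, the former pair known from cartilage, had mean levels of 0.862 to 7.39 CPM in control and 0.578 to 6.41 CPM in KO cultures, and none passed the test. Col2a1, the type II chain of cartilage, had counts in 2 of 10 libraries, with at most 2 counts in a library.

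**Figure D3:**
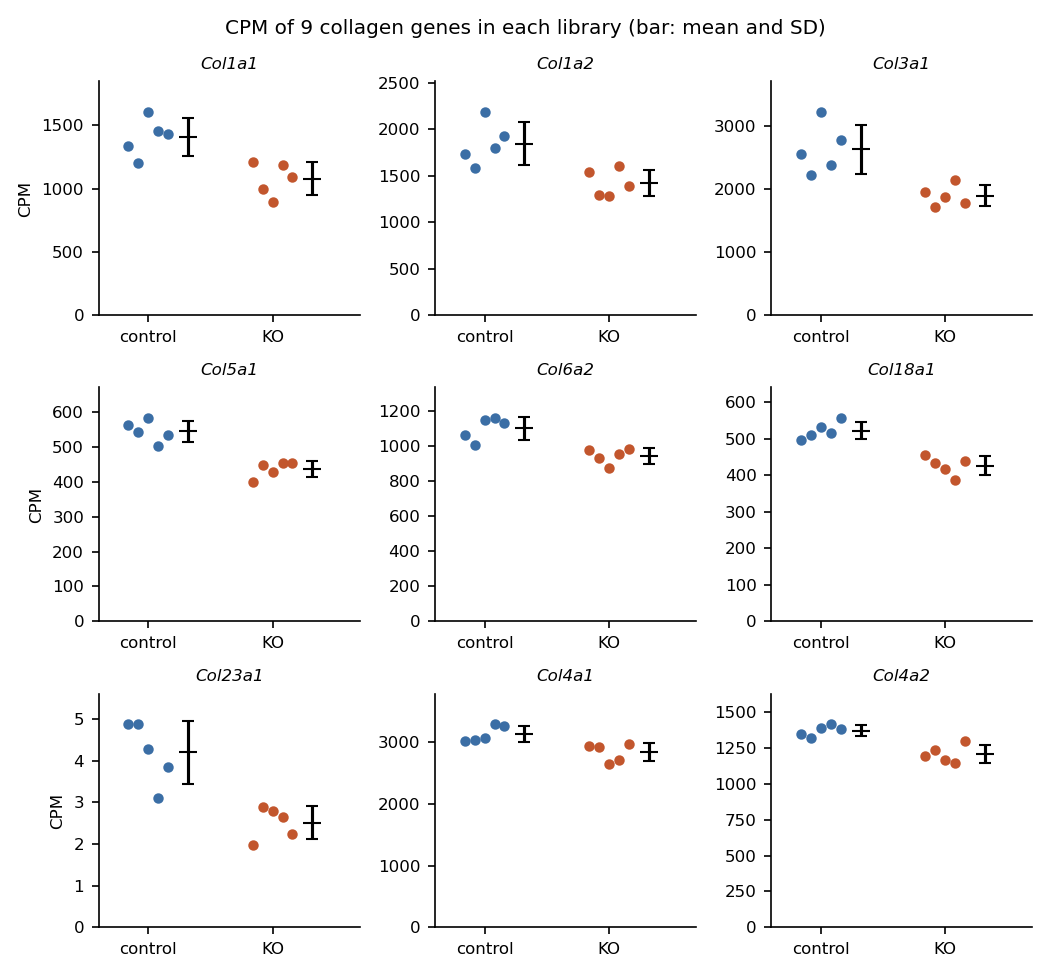
CPM in each of the 5 control and 5 KO libraries (y axes start at 0) for the 7 collagen genes called lower in KO and for Col4a1 and Col4a2, with the mean and SD (n = 5) beside the points. The groups do not overlap in Col3a1, Col5a1, Col6a2, Col18a1, Col23a1, Col4a1 and Col4a2, and overlap in Col1a1 and Col1a2.

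Type IV collagen is the scaffold of basement membranes, and its most common trimer is made from the chains of Col4a1 and Col4a2. Both genes lie on chromosome 8 head to head: Col4a1 (ENSMUSG00000031502.12, chr8:11198423-11312826) on the minus strand and Col4a2 (ENSMUSG00000031503.14, chr8:11312805-11449287) on the plus strand, with an overlap of 22 bp at their starts. Col4a1 had CPM of 3024, 3032, 3073, 3297 and 3262 in controls 1 to 5, and of 2943, 2919, 2649, 2716 and 2979 in KO 1 to 5. Although no KO library reached a control library, the difference was small and did not pass the test over all genes. The log2 fold change of Col4a1 was -0.14 (standard error 0.0495, edgeR adjusted p = 0.225), with 3138 ± 131 CPM in controls and 2841 ± 148 CPM in KO cultures (mean ± SD, n = 5 each). Col4a2 had CPM of 1348, 1321, 1386, 1415 and 1378 in controls 1 to 5, and of 1193, 1234, 1165, 1145 and 1298 in KO 1 to 5. Here too the groups did not overlap. Col4a2 had a log2 fold change of -0.18 (standard error 0.0436, edgeR adjusted p = 0.0527), with 1369 ± 36.3 CPM in controls and 1207 ± 61.0 CPM in KO cultures (mean ± SD, n = 5 each), so Col4a2 missed the limit by little. It passed with DESeq2 (adjusted p = 0.00219), limma voom (adjusted p = 0.0432), upper-quartile factors (adjusted p = 0.0419), a stricter filter on low counts (adjusted p = 0.0454) and without KO library 5 (adjusted p = 0.0353). Col4a2 missed it with DESeq2 size factors (edgeR adjusted p = 0.0651), without a filter on low counts (0.0880) and with a replicate block (0.180). It also missed it with a length trend removed and without both control 4 and KO 1. Thus Col4a2 passed in 1 of 10 fits that left out 1 library each and under 4 of 9 other settings. Non-overlapping libraries with the KO group lower were found for 7 of the 27 tested collagen genes, against 2.66% of all genes tested, and with the KO group higher for 0, against 1.31% of all genes.

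Col4a5, a chain of a more specialized type IV network, had CPM of 22.7, 21.7, 28.7, 29.7 and 27.0 in controls 1 to 5, and of 25.9, 24.4, 21.1, 21.3 and 22.6 in KO 1 to 5. The groups overlapped. On the log2 scale KO and control differed in Col4a5 by -0.17 (standard error 0.0945, edgeR adjusted p = 0.539). Its head-to-head neighbor Col4a6, 1308 bp away on chromosome X, had at most 6 counts in a library. Col4a3 and Col4a4, which lie head to head on chromosome 1 with 71 bp between them and are known from the kidney filter, had at most 10 and 15 counts in a library. These 3 genes were too low to be tested.

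Type VI chains form beaded filaments around cells and are abundant in fat. Col6a1 and Col6a2 lie on the minus strand of chromosome 10, 85161 bp apart. Col6a2 (ENSMUSG00000020241.14, chr10:76595762-76623630) had CPM of 1064, 1008, 1151, 1162 and 1133 in controls 1 to 5, and of 981, 935, 875, 957 and 985 in KO 1 to 5. The highest KO library, number 5, lay below the lowest control library, number 2. For Col6a2 the log2 fold change was -0.22 (standard error 0.0508, edgeR adjusted p = 0.0416), with 1104 ± 65.6 CPM in controls and 947 ± 45.1 CPM in KO cultures (mean ± SD, n = 5 each). Col6a1 had CPM of 1282, 1184, 1330.3, 1502 and 1294 in controls 1 to 5, and of 1285, 1160.4, 1072, 1156 and 1201 in KO 1 to 5. KO libraries 1 and 5 reached into the range of the controls. The log2 fold change of Col6a1 was -0.17 (standard error 0.0647, edgeR adjusted p = 0.300). Col6a3, the long chain whose end piece is released as endotrophin, had CPM of 675, 557, 558, 888 and 637 in controls 1 to 5, and of 614, 627, 381, 537 and 555 in KO 1 to 5. Control library 4 was the highest and KO library 3 the lowest, and the groups overlapped. Col6a3 had a log2 fold change of -0.29 (standard error 0.145, edgeR adjusted p = 0.474). Col6a4, Col6a5 and Col6a6, which lie in a row on chromosome 9, had at most 3 counts in a library.

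Col18a1 and Col15a1 encode multiplexins, collagens of the basement membrane zone that carry sugar chains, and the end of the Col18a1 chain is released as endostatin. Col18a1 (ENSMUSG00000001435.16, chr10:77052178-77166548, minus strand) had CPM of 495, 510.4, 533, 515 and 557 in controls 1 to 5, and of 454, 433, 417, 386 and 438 in KO 1 to 5. Every KO library was below every control library. On the log2 scale KO and control differed in Col18a1 by -0.29 (standard error 0.0493, edgeR adjusted p = 0.00651), with 522 ± 23.5 CPM in controls and 426 ± 25.9 CPM in KO cultures (mean ± SD, n = 5 each). Col15a1 had CPM of 543, 541, 552, 769 and 619 in controls 1 to 5, and of 617, 562, 454, 495 and 538 in KO 1 to 5. Control library 4 and KO library 1 were high, and the groups overlapped. For Col15a1 the log2 fold change was -0.18 (standard error 0.104, edgeR adjusted p = 0.555).

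Col23a1 encodes a collagen that spans the plasma membrane. It was rare, and of the 7 genes called it had the largest fitted fold change. Col23a1 (ENSMUSG00000063564.14, chr11:51289920-51583918, plus strand) had CPM of 4.88, 4.87, 4.28, 3.09 and 3.85 in controls 1 to 5, and of 1.98, 2.90, 2.79, 2.66 and 2.24 in KO 1 to 5. The groups did not overlap. The log2 fold change of Col23a1 was -0.73 (standard error 0.152, edgeR adjusted p = 0.0233), with 4.19 ± 0.753 CPM in controls and 2.51 ± 0.388 CPM in KO cultures (mean ± SD, n = 5 each). The other membrane collagens Col13a1, Col17a1 and Col25a1 had at most 14, 8 and 1 counts in a library and were not tested.

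Fibril-associated collagens bind to the surface of collagen fibers. Col16a1 had CPM of 68.3, 67.0, 89.8, 98.7 and 84.1 in controls 1 to 5, and of 85.5, 62.8, 62.3, 62.9 and 68.0 in KO 1 to 5. KO library 1 stood above the other KO libraries. Col16a1 had a log2 fold change of -0.26 (standard error 0.117, edgeR adjusted p = 0.410). Col12a1 had CPM of 111, 85.4, 97.6, 231 and 130.3 in controls 1 to 5, and of 179, 151, 74.9, 135 and 125 in KO 1 to 5. Control library 4 was the highest of all, and the groups overlapped over most of their range. On the log2 scale KO and control differed in Col12a1 by 0.02 (standard error 0.265, edgeR adjusted p = 0.989). Col14a1 had CPM of 6.35, 3.26, 4.94, 7.06 and 4.95 in controls 1 to 5, and of 5.75, 4.74, 3.10, 7.79 and 4.07 in KO 1 to 5. The groups overlapped over nearly their whole range, and the sign of the difference depended on single libraries. For Col14a1 the log2 fold change was -0.05 (standard error 0.244, edgeR adjusted p = 0.976). Col20a1 was at 2.55 ± 0.613 CPM in controls and 2.33 ± 0.300 CPM in KO cultures (mean ± SD, n = 5 each). Col9a1, Col9a2, Col9a3, Col19a1 and Col22a1 had at most 18 counts in a library.

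The short-chain genes Col8a1 and Col8a2, whose products form networks under endothelia, were near the filter on low counts. Col8a2 had CPM of 1.36, 0.637, 2.16, 0.677 and 1.23 in controls 1 to 5, and of 0.645, 0.966, 0.524, 0.870 and 0.713 in KO 1 to 5. The log2 fold change of Col8a2 was -0.68 (standard error 0.334, edgeR adjusted p = 0.459), and the groups overlapped. Col8a1 had CPM of 0.892, 0.975, 1.69, 2.08 and 1.48 in controls 1 to 5, and of 1.93, 1.67, 0.698, 1.42 and 0.356 in KO 1 to 5. Col8a1 had a log2 fold change of -0.22 (standard error 0.369, edgeR adjusted p = 0.905). The groups overlapped here too. Col28a1, a collagen with von Willebrand factor domains, had CPM of 48.7, 39.2, 56.5, 62.2 and 48.4 in controls 1 to 5, and of 56.4, 36.1, 32.1, 47.5 and 34.4 in KO 1 to 5. On the log2 scale KO and control differed in Col28a1 by -0.30 (standard error 0.157, edgeR adjusted p = 0.488), and KO libraries 1 and 4 lay within the control range. Col7a1, the chain of the anchoring fibrils of skin, had CPM of 6.82, 6.37, 8.32, 7.40 and 2.03 in controls 1 to 5, and of 5.90, 6.19, 8.51, 1.69 and 6.01 in KO 1 to 5. Control library 5 and KO library 4 were low, as they were for Col5a3. For Col7a1 the log2 fold change was -0.12 (standard error 0.369, edgeR adjusted p = 0.957). Col10a1 of growth plate cartilage had 1 count in all libraries together, and Col26a1 had 6.

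Other scaling and single libraries changed which genes passed. With DESeq2 size factors in edgeR, Col1a1 (adjusted p = 0.0508) and Col1a2 (adjusted p = 0.0523) missed the limit. With a trend over gene length removed, Col3a1 (edgeR adjusted p = 0.0518), Col6a2 (0.0580) and Col1a2 (0.114) missed it. Col5a1 and Col18a1 passed in all 10 fits that left out 1 library each and under all 9 other settings tried. Col3a1 passed in 7 of the 10 fits, and missed the limit without control library 5 (edgeR adjusted p = 0.0547), KO library 2 (0.0630) or KO library 5 (0.0651). Col23a1 passed in 5, and was lost without control libraries 1, 2 or 3 or KO libraries 4 or 5, where the edgeR adjusted p was 0.0535 to 0.0732. Col1a2 passed in 4, and was lost without control libraries 1, 3 or 5 or KO libraries 2, 3 or 5. Col1a1 and Col6a2 passed in 2 each, namely without control library 2 or without KO library 1. The edgeR adjusted p reached 0.138 for Col1a1 and Col1a2 and 0.130 for Col6a2. Signs of the fold changes of these 7 genes did not change in any of these fits. In all, 3 collagen genes were called lower without control library 1, 3 or 5 or KO library 2 or 5, 4 without KO library 3 or 4, and 7 without both control library 4 and KO library 1.

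Between genes, levels can be compared only per length. Mean CPM divided by the length of all exons of a gene in kb gave the highest control level to Col4a1, with 420 ± 17.6 CPM per kb (SD, n = 5). Col6a1 followed with 301 ± 26.5, Col3a1 with 268 ± 39.5, Col1a1 with 214 ± 22.6, Col4a2 with 207 ± 5.48 and Col5a3 with 195 ± 16.2 CPM per kb, where the last 3 differed by less than their spread. All exons of Col1a2, Col3a1 and Col6a2 are together much longer than their main transcript. Per kb of the transcript with the longest coding sequence, Col4a1 (474 CPM per kb) and Col3a1 (473 CPM per kb) were level, and Col1a2 moved from 149 to 345 CPM per kb. By either length the same 13 genes stood first, and no other collagen gene exceeded 15.7 CPM per kb.

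**Figure D4:**
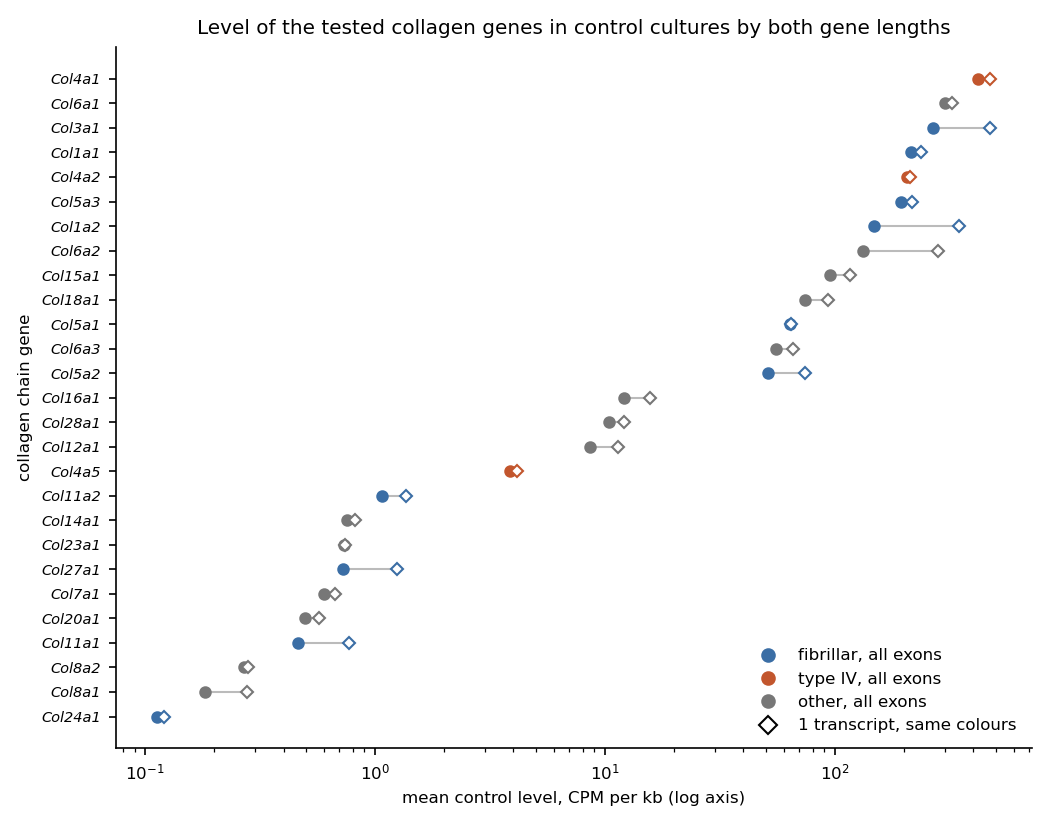
Mean control level of the 27 tested collagen genes in CPM per kb (x axis, log scale), per kb of all exons (circles) and per kb of the transcript with the longest coding sequence (diamonds), colored by type. A group of 13 genes lies above 50 CPM per kb by both lengths, and the positions of Col1a2, Col3a1 and Col6a2 depend most on the length used.

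Chains of 1 trimer or fiber were compared as ratios within each library, since a ratio does not depend on the scaling of the library. For Col1a1 to Col1a2 the ratio of levels per kb of all exons was 1.44 ± 0.0573 (SD, n = 5) in control and 1.43 ± 0.0712 (SD, n = 5) in KO cultures. Per kb of the transcript with the longest coding sequence this ratio was 0.688 in controls, since the lengths set the level of a ratio but not its difference between groups. Per kb of all exons, the ratio of Col4a1 to Col4a2 was 2.03 ± 0.0541 (SD, n = 5) in control and 2.09 ± 0.0677 (SD, n = 5) in KO cultures. Type V had the greatest difference, with a Col5a3 to Col5a1 ratio of 3.04 ± 0.283 (SD, n = 5) in control and 3.51 ± 0.418 (SD, n = 5) in KO cultures (2-sided exact permutation test, p = 0.111). Over 8 pairs the log2 ratio differed between groups by -0.15 to 0.20, the libraries overlapped in every pair, and p from the 2-sided exact permutation test was 0.111 to 0.786, or 0.396 to 0.786 after Benjamini-Hochberg adjustment over the 8 pairs. The smallest p that this test allows for 5 against 5 libraries is 0.00794. None of the 8 ratios was thus shown to differ between the groups.

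Promoter sequences were read as a description, and genes called lower were not compared with the others. RefSeq windows on GRCm38.p6, reaching from 250 bases before to 50 bases after a start, were at hand for 35 of the 44 genes, in 38 windows. Of the genes called lower, Col1a1 had no window, and Col3a1 alone held TATAAA. Col1a2, Col5a1, Col6a2, Col23a1 and a window of Col18a1 held GGGCGG on either strand, and Col3a1 did not. The 250 bases before the starts of Col3a1 (chr1:45311288-45311537, plus strand) and Col5a1 (chr2:27886175-27886424, plus strand) are shown as an example of the contrast. Capitals mark the letters TATAAA of the TATA box motif and GGGCGG of the GC box motif, wherever they stood. GGGCGG was also marked where its reverse complement CCGCCC was read.
Col3a1: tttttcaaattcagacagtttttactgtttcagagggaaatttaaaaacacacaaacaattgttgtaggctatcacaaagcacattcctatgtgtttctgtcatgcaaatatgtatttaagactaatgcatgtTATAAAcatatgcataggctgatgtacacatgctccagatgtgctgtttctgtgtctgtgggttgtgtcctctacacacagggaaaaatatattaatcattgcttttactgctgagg
Col5a1: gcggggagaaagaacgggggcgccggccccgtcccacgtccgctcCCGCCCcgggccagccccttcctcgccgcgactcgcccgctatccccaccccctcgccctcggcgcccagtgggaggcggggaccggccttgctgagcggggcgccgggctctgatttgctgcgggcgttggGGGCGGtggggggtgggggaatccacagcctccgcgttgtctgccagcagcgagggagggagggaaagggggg
The Col3a1 stretch was 35.2% G and C and held 1 TATAAA, 117 bases before the start. The Col5a1 stretch was 76.4% G and C and held 1 GGGCGG at 73 bases and 1 CCGCCC at 205 bases before the start. Neither held CCAAT on either strand. Searched on both strands over the full windows, GGGCGG was in 23 of the 38 collagen windows, against 35.7% of 32851 windows of all genes. CCAAT was in 13 collagen windows, against 37.4% of all windows, and TATAAA in 5, against 13.6%. A match of letters is a description and does not show that a factor binds there.

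Genes that fold, trim and crosslink collagen chains were examined next to the chains. Of 30 tested genes of this list, 6 fell in KO and 0 rose, with a median log2 fold change of -0.10. Over all genes tested, the shares beside which this and the next lists stand were 1.86% lower and 0.308% higher. Plod2, which hydroxylates lysines for crosslinks, was at 142 ± 12.3 CPM in controls and 102 ± 9.11 CPM in KO cultures (mean ± SD, n = 5 each, log2 fold change -0.48, edgeR adjusted p = 0.00292). The procollagen C-proteinase enhancers Pcolce2 (-0.66, edgeR adjusted p = 0.0100) and Pcolce (-0.31, edgeR adjusted p = 0.0396) fell as well. So did the proline hydroxylase P4ha3 (-0.55, edgeR adjusted p = 0.0365) and the chaperones of the endoplasmic reticulum Fkbp10 (-0.29, edgeR adjusted p = 0.0326) and Fkbp14 (-0.31, edgeR adjusted p = 0.0327). Serpinh1, the collagen chaperone HSP47, was at 759.8 ± 121 CPM in controls and 634 ± 77.6 CPM in KO cultures (mean ± SD, n = 5 each) and did not pass (edgeR adjusted p = 0.371). Of 12 tested receptors and uptake genes, 1 fell, Adgrg1, a receptor for type III collagen (-0.52, edgeR adjusted p = 0.00659). Of 11 tested proteases and inhibitors, 1 rose and 0 fell. The 1 was Mmp9, a gelatinase, with 12.1 ± 5.45 CPM in controls and 32.6 ± 13.1 CPM in KO cultures (mean ± SD, n = 5 each, log2 fold change 1.44, edgeR adjusted p = 0.0370), and its libraries did not overlap.

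Markers of other cells that the cultures could hold also differed between the groups. Of 18 endothelial markers, 15 fell, with a summed level of 233 to 277 CPM in control and 111 to 148 CPM in KO libraries, and none was at 0 in all libraries. The defining gene Cdh5 fell from 53.1 ± 5.11 CPM (SD, n = 5) to 22.1 ± 3.67 CPM (SD, n = 5) (log2 fold change -1.27, edgeR adjusted p = 5.3e-05). Endothelial cells are known to make type IV, XV and XVIII collagen, and their part in the lower values of Col18a1, Col4a1 and Col4a2 was not tested. Of 11 progenitor and fibroblast markers, 2 fell, Lum (log2 fold change -0.78, edgeR adjusted p = 0.00154) and Pdgfra (-0.31, edgeR adjusted p = 0.00878), with a summed level of 1669 to 1989 CPM in control and 1623 to 1825 CPM in KO libraries. Fibroblasts are a known main source of type I, III and V collagen, and their part in those values was not tested. Of 9 tested pericyte and smooth muscle markers 0 passed, with a median log2 fold change of -0.35 and a summed level of 186 to 246 CPM in control and 149 to 203 CPM in KO libraries. None of the 12 mature adipocyte markers passed either, although 10 had a fold change above 0 and their summed level was 32584 to 33325 CPM in control and 34111 to 36149 CPM in KO libraries. The part of this difference in the lower share of collagen fragments was not tested. Of 10 macrophage markers 0 passed, at 1457 to 2248 CPM in control and 1286 to 2138 CPM in KO libraries. Among 5 Schwann cell markers Ngfr fell (-0.70, edgeR adjusted p = 0.00324), with a summed level of 104 to 125 CPM in control and 81.9 to 107 CPM in KO libraries. Of 6 mesothelial markers, 2 were tested and 0 passed, the summed level was 24.2 to 31.2 CPM in control and 17.2 to 36.8 CPM in KO libraries, and Upk1b was at 0 in all libraries.

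**Figure D5:**
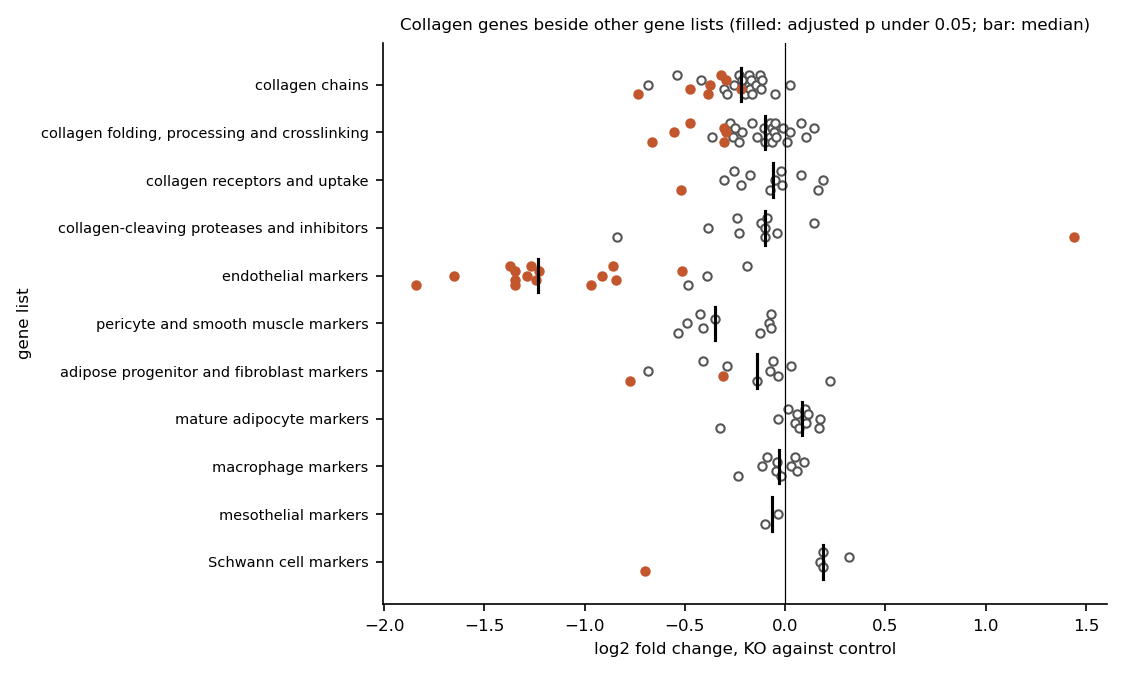
Log2 fold change of KO against control (x axis) for each tested gene of the collagen chains, of 3 lists of collagen pathway genes and of 7 lists of cell markers (y axis), with filled points for an adjusted p under 0.05 in the quasi-likelihood test of edgeR and a bar at the median of each list. The collagen chains have a median of -0.22 and the endothelial markers one of -1.23, and the other medians lie between -0.35 and 0.19.

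Some values carry limits from the way fragments were counted. The library kits do not mark strand and the strand setting of the counting is not stated, so fragments may be shared where collagen genes overlap other genes. In GENCODE M21, 17 of the 27 tested collagen genes overlap another gene, taking each gene from its start to its end with introns included. Overlap of exons was not computed, so it is not known in how many of them fragments could be shared. Of the 7 genes called lower, Col1a1, Col6a2 and Col23a1 overlap none, and 4 do. Col18a1 overlaps Slc19a1 on the opposite strand, while Col1a2, Col3a1 and Col5a1 overlap genes known only by a clone or model name. Col4a1 and Col4a2 overlap each other at their starts.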

How the data were processed

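Library preparation used SMARTer v4 cDNA followed by Nextera XT. The authors mapped paired-end reads to GRCm38.p6 with STAR and deposited fragment counts per gene from featureCounts, without normalization, filtering or pooling of replicates. Per the labels the build was mm10. The counts table gave symbols and identifiers, 52073 of 56748 identifiers had a position in GENCODE M21, and 0 columns belonged to other samples. No identifier of a collagen gene had the version number of that release, so the counting used another release.

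The deposited counts were analysed in R 4.3.3 with edgeR 4.0.16. After filterByExpr (minimum count 10), TMM scaling was applied and 14270 genes were compared between KO and control by the quasi-likelihood test without a block, with p adjusted by the Benjamini-Hochberg method. A standard error is the fold change on the log2 scale over the root of F. CPM used TMM library sizes, and the shares of fragments used total counts. The common biological coefficient of variation was 9.35%. Between replicates of a group the chi-square per degree of freedom was 3.50 or more, so no 2 libraries of the same group were 1 library deposited again. Control libraries were not compared with KO libraries in this way. Counting error weighs most on genes of low CPM.

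The members and gene lists were chosen with earlier results of these data known. The genes given with library values were the collagen genes with an adjusted or unadjusted p under 0.05, those with non-overlapping libraries and up to 3 tested genes with the highest CPM per kb in each class. Of other lists, up to 6 genes past the limit were named by smallest p, together with Adipoq and Serpinh1, chosen after their values were seen. Alternatives were DESeq2 1.42.0, limma 3.58.1 voom with quality weights, other size factors, other filters, removal of a length trend, a replicate block, each library left out, and control 4 and KO 1 both left out. The transcript length and the chain ratios with single libraries left out were added after the data were seen. The edgeR step was tested on simulated data for KO against control with 14143 genes, where it called 100 of 100 genes changed 2-fold, 76 of 100 with a log2 change of 0.5, and 6 of 13943 unchanged genes. No log2 change smaller than 0.5 was simulated, and most collagen genes had smaller ones. How often the step finds such changes was not measured.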

Additional observations from a re-analysis of the deposited data

Results flagged for a closer look

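In 2 of 46 groups of 5 libraries compared, over 23 collagen genes, 1 library lay further from its nearest neighbor, as a share of the group's range, than Dixon's limit of 0.71. Chance passes this limit in about 1 of 20 groups, or 2.3 of 46.

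Control library 5 had 1129 CPM of Col5a3, against 1355 to 1388 CPM in the other control libraries (Dixon ratio 0.873). KO library 1 had 85.5 CPM of Col16a1, against 62.3 to 68.0 CPM in the other KO libraries (Dixon ratio 0.753).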

How the results depend on the processing

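Collagen genes called higher numbered 0 under every alternative. Collagen genes called lower numbered 5 with DESeq2 size factors (Col1a1 and Col1a2 lost), 8 with upper-quartile factors, DESeq2, limma voom or a filter of at least 1 CPM in 5 libraries, 7 without a filter or without both control 4 and KO 1, and 4 with a length trend removed (Col3a1, Col1a2 and Col6a2 lost). With 1 library left out they numbered 3 to 7, and all genes called numbered 164 to 323 lower and 19 to 119 higher. All genes called numbered 359 lower and 125 higher with DESeq2, 347 and 111 with limma voom and 353 and 145 without both control 4 and KO 1, against 265 and 44. The causes of these differences were not tested. The medians of the 3 types stayed below 0 throughout. Fold changes that turned sign were those of genes near 0 or low in counts. Col14a1 was 0.0072 with limma voom, 0.034 without both control 4 and KO 1 and -0.26 to 0.091 with 1 library left out. With 1 library left out, Col12a1 was -0.11 to 0.33, Col7a1 -0.35 to 0.12 and Col8a1 -0.43 to 0.0044, and the log2 difference in the Col1a1 to Col1a2 ratio was -0.028 to 0.016.

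Replicate numbers occur in both groups, but libraries of equal number did not deviate together, with correlations of -0.25 to 0.26, and 1 of 5 libraries correlated best with its own number. With a replicate block 3 collagen genes (Col3a1, Col5a1, Col18a1) were called lower, and of all genes 193 were lower and 21 higher.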
